A study of Mus musculus with 16 samples.

Results

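Subcutaneous white fat of young mice lacking Nampt in their adipocytes was compared with fat of old mice whose Nampt was intact, over all genes. The comparison used 8 of the 16 libraries of the series: 3 from 2-month-old ANKO mice (knockout of Nampt in adipocytes, in which an adiponectin-Cre transgene recombines a floxed Nampt) and 5 from flox/flox control mice aged 22 to 27 months. The libraries were assigned to their groups by their labels, and the comparison was chosen with earlier results of these data known. All mice were C57BL/6J on regular chow, and the series title names females. Total RNA was sequenced after ribosomal RNA was removed. The labels do not say whether the controls carried Cre, which exons were floxed, or whether each library came from its own animal, so the p-values measure the spread between these samples, which may be technical. Age and genotype differ together between these groups and cannot be told apart within the comparison. The 3 flox/flox libraries of 2-month-old mice (young controls) are therefore given beside it, and the 5 old ANKO libraries entered the fit for its estimate of spread. The question, as the design implies it, is where early loss of Nampt resembles the state of old fat and where it departs from it.

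Nampt makes nicotinamide mononucleotide from nicotinamide, the rate-limiting step by which most cells salvage NAD. NAD carries electrons in metabolism and is consumed by sirtuins, PARPs and the ectoenzyme CD38. In white fat the adipocyte stores triglyceride and secretes hormones such as adiponectin, leptin and resistin. A subcutaneous depot also holds vessels, fibroblasts, immune cells, and, depending on the dissection, lymph node, mammary epithelium, skin muscle and skin.

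Of 21206 genes tested, 283 (1.33%) differed between young ANKO and old control fat at an adjusted p under 0.05 (edgeR quasi-likelihood test, Benjamini-Hochberg), and 2886 did so at an unadjusted p under 0.05. Of the 283, 135 (0.637% of the genes tested) were higher in young ANKO fat and 148 (0.698%) lower. The groups did not overlap in CPM for 278 of the 283, so lack of overlap adds little to a call. The median log2 fold change over all genes was -0.03. In the same fit 67 genes (0.316%) differed between young ANKO and young control, and 104 (0.49%) between old and young control. The log2 fold change of young ANKO over old control is the ANKO difference at 2 months minus the age difference in controls, so the values of the 3 comparisons share libraries and are not independent. The count depended on single libraries: it was 119 without young ANKO 1, 44 without young ANKO 2 and 89 without young ANKO 3. Without old controls 2 and 5, whose markers of T and NK cells were far below those of the other libraries, it was 524. Called without each of the 8 libraries in turn were 39 genes, 27 of them higher in young ANKO fat.

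By their overall profile the young ANKO libraries lay nearer to young controls than to old controls. The distance between a pair of libraries was taken as the root mean square difference of their log2 CPM (counts scaled to effective library size, per 1000000 reads) over the 21206 genes. Young ANKO 1, 2 and 3 lay at a mean distance of 0.727, 0.736 and 0.786 from the young controls and of 0.967, 0.945 and 0.973 from the old controls. The old controls were as far from each other: their 10 pairs had a mean distance of 0.995 (0.741 to 1.236), against 0.962 (0.785 to 1.234) for the 15 pairs of young ANKO and old control. The 15 pairs of young control and old control had a mean of 0.967 (0.743 to 1.252). Knockouts and young controls thus lay about equally far from old controls. Pairs of young ANKO and young control had a mean of 0.749 (0.656 to 0.858), a range that overlaps that of young ANKO and old control. The 3 pairs of young ANKO libraries had a mean of 0.707. Without old controls 2 and 5 the gap between the distances to old and to young controls shrank from 0.212 to 0.111. Pairs share libraries, so these distances carry no test.

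**Figure D1:**
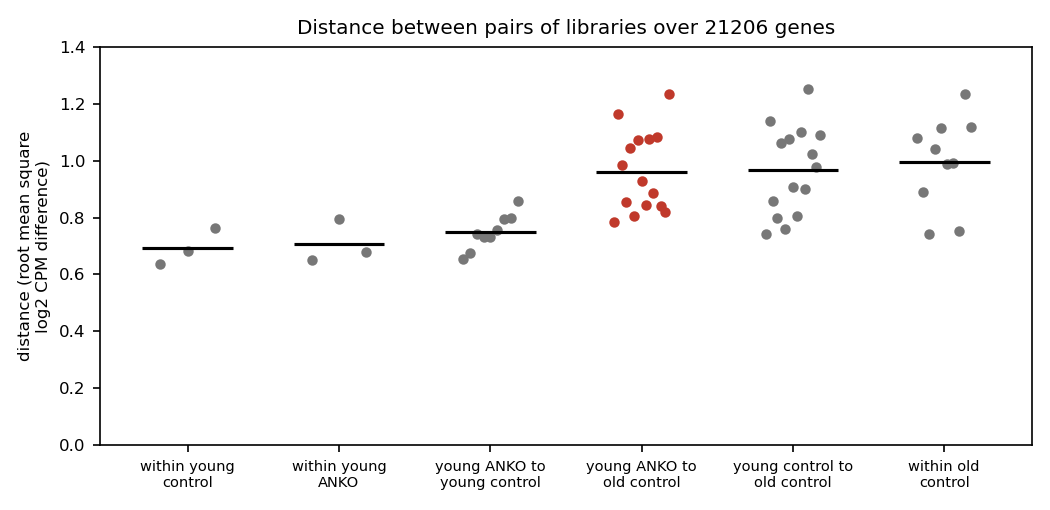
Root mean square log2 CPM difference over 21206 genes (y axis) for each pair of libraries, by the groups that the pair joins (x axis), with lines at the mean. Pairs of young ANKO and old control (red) had a mean of 0.962, below the 0.995 within old controls and above the 0.749 between young ANKO and young control. Pairs of young control and old control had a mean of 0.967.

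Nampt itself (chromosome 12, 32819545 to 32853349, GRCm38) did not separate the groups. It read 49.8, 51.7 and 48.7 CPM in young ANKO, 61.2, 76.9, 47.2, 50.7 and 78.6 CPM in old control and 86.3, 95.4 and 89.0 CPM in young control fat. Old controls 3 and 4 lay at the level of the knockouts, and all 5 old controls lay below all 3 young controls. The log2 fold change of young ANKO over old control was -0.33 ± 0.15 (SE, n = 3 and 5, adjusted p = 0.34), with a 95% interval from -0.65 to -0.01. Young ANKO over young control gave -0.85 ± 0.17 (adjusted p = 0.043) and old over young control -0.52 ± 0.14 (adjusted p = 0.12). Reads were counted over the whole gene and from every cell of the tissue. In bulk tissue fewer cells of a type and less RNA per cell cannot be told apart.

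Among 30 genes of NAD metabolism, all of them measured, 1 was lower in young ANKO than in old control fat and none higher. The list's median log2 fold change was 0.01, and 22 of the 30 genes had a 95% interval within 1 on the log2 scale either way (55.6% of all genes had one). The gene that passed was Nnmt (chromosome 9, 48591877 to 48605153), which methylates nicotinamide and so withdraws it from NAD salvage. It read 7.97, 8.03 and 8.61 CPM in young ANKO fat, against 30.6, 88.4, 24.7, 17.1 and 86.3 CPM in old controls and 34.8, 43.8 and 42.7 CPM in young controls. The 3 knockouts were nearly equal and below every control of either age. The log2 fold change was -2.59 ± 0.51 (adjusted p = 0.024) against old controls and -2.30 ± 0.54 (adjusted p = 0.099) against young controls. The call was lost without any 1 of the 3 young ANKO libraries, with the adjusted p of Nnmt reaching 0.149 over all alternatives. Sarm1, which cleaves NAD in axons, read 2.41, 2.14 and 1.73 CPM in young ANKO and 2.83 to 6.76 CPM in old control fat without overlap, and was not called (-1.14 ± 0.34, adjusted p = 0.111). Sirt1, an NAD-dependent deacetylase, had 29.1, 30.6 and 31.6 CPM against 21.9 to 27.7 CPM (0.26 ± 0.11, adjusted p = 0.30).

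**Figure D2:**
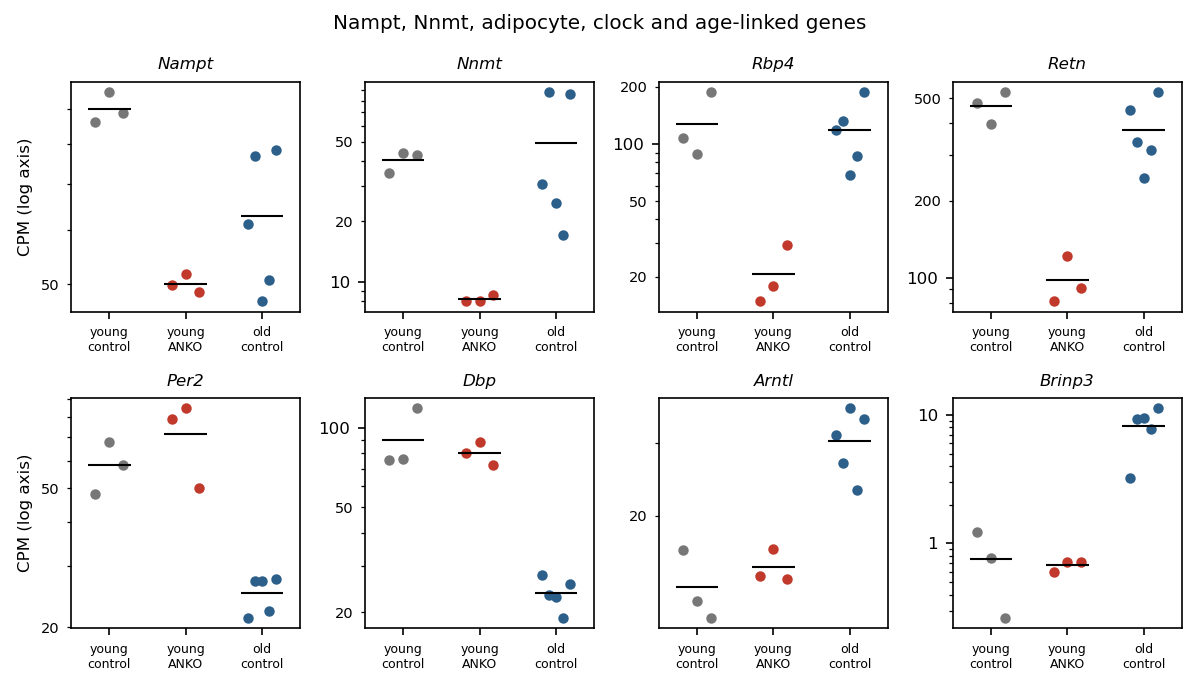
Level of 8 genes in CPM (log axes) in each library of young control, young ANKO and old control fat, with lines at the group means. Nnmt, Rbp4 and Retn were low in young ANKO fat beside both control groups, whereas Per2, Dbp, Arntl and Brinp3 set old controls apart from both young groups.

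Of 28 listed genes of the integrated stress response, all measured, 8 were higher in young ANKO than in old control fat and none lower, with a median log2 fold change of 0.26. In this response kinases that sense amino acid shortage, misfolded protein, or mitochondrial or viral stress phosphorylate eIF2, which favours translation of the transcription factor Atf4 and raises its targets. Against young controls 5 of the 28 were higher (0.165% of all genes were) and none lower. In old over young controls none was called, with a median of 0.05.

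Gdf15 (chromosome 8, 70629393 to 70632456), a secreted hormone that acts on the hindbrain to reduce feeding, had the largest log2 fold change of those 8. It read 17.6, 32.3 and 34.8 CPM in young ANKO fat and 0.515, 2.65, 0.335, 1.02 and 0.573 CPM in old controls. The young controls had 0.181, 0.517 and 1.63 CPM. The lowest knockout was above every control, and old and young controls overlapped. The log2 fold change of Gdf15 was 4.76 ± 0.61 (adjusted p = 0.0019) against old controls and 5.19 ± 0.78 (adjusted p = 0.011) against young controls. Old over young control gave 0.44 ± 0.67 (adjusted p = 0.83), and the call against old controls held under every alternative fit.

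Trib3, a pseudokinase induced by Atf4, had 24.4, 31.9 and 32.7 CPM in young ANKO and 7.22 to 12.3 CPM in old control fat (1.74 ± 0.28, adjusted p = 0.0067). Ppp1r15a, the phosphatase subunit that reverses eIF2 phosphorylation, had 30.9, 38.5 and 35.2 CPM against 14.2 to 25.0 CPM (0.85 ± 0.15, adjusted p = 0.010). Atf4 had 109, 129 and 116 CPM against 72.9 to 92.2 CPM (0.57 ± 0.10, adjusted p = 0.014). These 3 genes did not overlap between the groups. Mthfd2, of the mitochondrial folate cycle, had 14.5, 22.6 and 22.4 CPM against 4.67 to 11.2 CPM (1.26 ± 0.24, adjusted p = 0.018). The other called members were Ddit3, Atf5 and Fgf21, named because they complete the 8. Fgf21, a hormone of fasting and mitochondrial stress, was barely detected: 0.474, 3.12 and 2.50 CPM in young ANKO fat, 0 to 0.409 CPM in old controls and 0, 0 and 0.0527 CPM in young controls. Its adjusted p was 0.0499, and leaving out old control 1, 2, 3 or 4, or any young ANKO library, ended the call. Of the 8 calls, 1 was left without young ANKO 2 and 2 without young ANKO 3, while 10 genes of the list were called without old controls 2 and 5. It was 5 without old control 1. Young ANKO 2 and 3 had the higher Gdf15, Trib3 and Mthfd2 values, and young ANKO 1 the lowest of the 3.

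**Figure D3:**
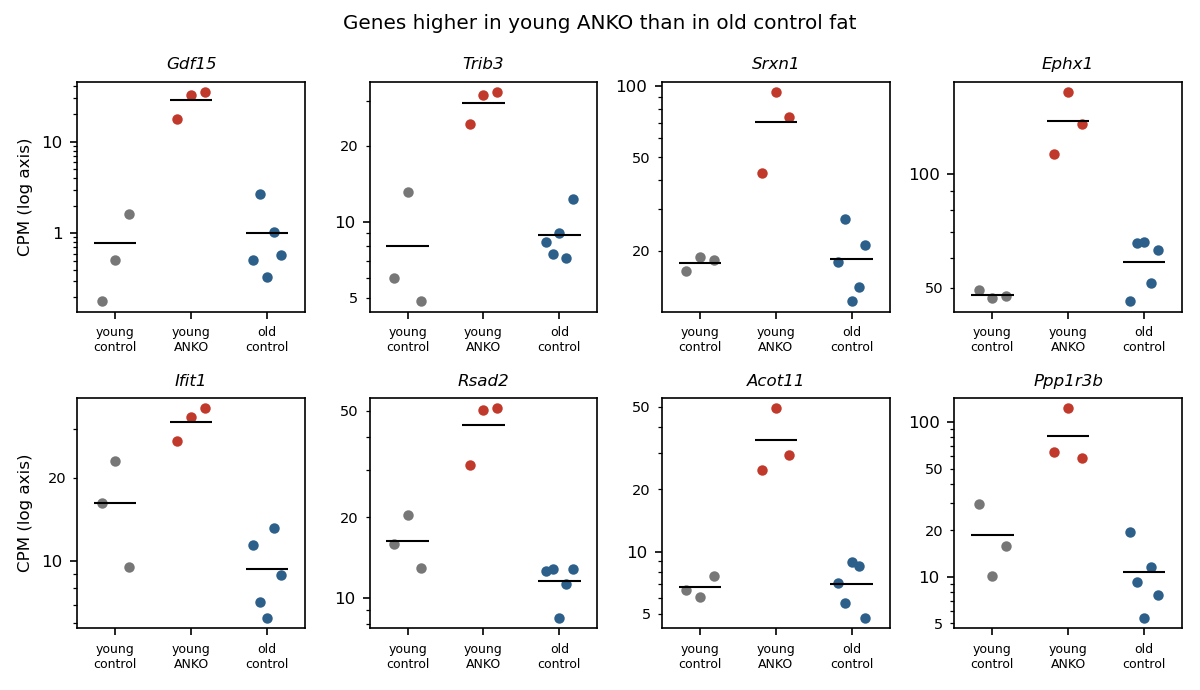
Level of 8 genes in CPM (log axes) in each library of young control, young ANKO and old control fat, with lines at the group means. Each of the 8 had its 3 young ANKO libraries above all 5 old controls, as for Gdf15 with 17.6 to 34.8 against 0.335 to 2.65 CPM. Of the 283 called genes, 278 did not overlap between these groups.

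Of 24 antioxidant genes, many of them targets of the transcription factor NRF2 and all measured, 6 were higher in young ANKO than in old control fat and none lower, with a median log2 fold change of 0.11. Against young controls 5 were higher and none lower, and none was called between old and young controls. Abcc4 (chromosome 14, 118482692 to 118706219), an exporter of cyclic nucleotides and conjugates, had 63.7, 69.0 and 75.1 CPM in young ANKO fat. Old controls had 34.2, 31.1, 37.8, 31.9 and 32.4 CPM and young controls 34.2, 35.9 and 37.1 CPM. Old and young controls thus overlapped, and the knockouts stood apart (1.05 ± 0.10, adjusted p = 1.39e-04). Ephx1, an epoxide hydrolase, had 113, 164 and 135 CPM against 46.0 to 66.2 CPM (1.23 ± 0.13, adjusted p = 3.39e-04). Its exons overlap those of Gm36961, so its count is uncertain.

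Srxn1, which reactivates oxidised peroxiredoxins, had 42.9, 94.6 and 74.4 CPM in young ANKO fat and 12.2 to 27.1 CPM in old controls (1.93 ± 0.26, adjusted p = 0.0022). Cbr3, a carbonyl reductase, had 12.0, 18.1 and 21.8 CPM against 3.69 to 7.88 CPM (1.80 ± 0.26, adjusted p = 0.0032). Gclm, the modifier subunit of the enzyme that limits glutathione synthesis, had 60.9, 97.0 and 79.4 CPM against 28.5 to 43.7 CPM (1.14 ± 0.17, adjusted p = 0.0049). None of these 3 overlapped between the groups. The last called member, Hmox1, which degrades heme, did overlap: 52.5, 86.7 and 76.9 CPM against 17.5 to 23.0 CPM in 4 old controls and 55.7 CPM in old control 2. Its call (adjusted p = 0.037) was lost without any 1 of 7 libraries, namely old controls 1, 3, 4 and 5 and each young ANKO library. The list kept between 4 and 6 calls over the 8 fits that left out 1 library, 4 of them without young ANKO 2, and had 7 without old controls 2 and 5.

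The antioxidant response element core TGACNNNGC (both strands) was found in the 250 bases before the start of 2 of the 5 called genes that RefSeq's promoters (GRCm38.p6) hold, Gclm and Abcc4. It stood before 7 of the 19 listed genes with a RefSeq promoter and before 13.7% of all such tested genes. Of the integrated stress genes, 1 of 8 called genes, Fgf21, held the amino acid response element core TGATGNAA, against 2.57% of tested genes. Among the 26 listed stress genes with a RefSeq promoter, 7 held it. The 200 bases before Gclm (chr3:122245357-122245556, plus strand) are shown with the match in capitals.
Gclm: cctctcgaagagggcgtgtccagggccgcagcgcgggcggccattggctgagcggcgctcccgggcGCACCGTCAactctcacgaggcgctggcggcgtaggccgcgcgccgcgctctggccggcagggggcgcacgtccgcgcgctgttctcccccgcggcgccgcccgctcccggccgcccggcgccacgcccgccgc

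Of 26 interferon-stimulated genes, all measured, 5 were higher in young ANKO than in old control fat and none lower, and the median log2 fold change was 0.76. Cells make these antiviral proteins when interferon or cytosolic nucleic acid is sensed. The groups did not overlap, with young ANKO higher, for 15 of the 26 (3.74% of all genes did so). Neither reference comparison called any of the 26. The list median was 0.30 in young ANKO over young control and -0.52 in old over young control.

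The 5 called genes were Ifit1, Ifit2, Ifit3, Ifit3b and Rsad2. The Ifit genes encode proteins that bind viral RNA and lie side by side on chromosome 19 (34550694 to 34650009), and Rsad2 encodes viperin, which makes a chain-terminating nucleotide. Ifit1 had 27.0, 33.0 and 35.5 CPM in young ANKO fat, 11.4, 7.17, 6.27, 13.2 and 8.92 CPM in old controls and 16.2, 22.9 and 9.53 CPM in young controls. Rsad2 had 31.2, 50.2 and 51.0 CPM in young ANKO fat, 12.6, 12.8, 8.42, 11.3 and 12.8 CPM in old controls and 15.9, 20.3 and 12.9 CPM in young controls. In both genes the knockouts lay above every control, and young and old controls overlapped for Ifit1 and did not for Rsad2. Against old controls the log2 fold change was 1.76 ± 0.26 for Ifit1 (adjusted p = 0.0039) and 1.93 ± 0.27 for Rsad2 (adjusted p = 0.0026). Against young controls it was 0.97 ± 0.30 (adjusted p = 0.27) for Ifit1 and 1.43 ± 0.31 (adjusted p = 0.069) for Rsad2. Old over young control gave -0.79 ± 0.26 (adjusted p = 0.20) for Ifit1 and -0.50 ± 0.27 (adjusted p = 0.47) for Rsad2.

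Ifit2 had 29.8, 38.7 and 43.2 CPM against 14.4 to 19.1 CPM in old controls (1.23 ± 0.16, adjusted p = 0.0019). Ifit3 had 40.4, 53.9 and 55.2 CPM against 12.9 to 21.6 CPM (1.66 ± 0.23, adjusted p = 0.0028), and Ifit3b 13.2, 18.2 and 18.1 CPM against 4.64 to 7.86 CPM (1.41 ± 0.21, adjusted p = 0.0035). Ifit3 and Ifit3b are near-identical copies, so how reads were divided between them is uncertain. All 5 calls held under every alternative fit, including the fit without old controls 2 and 5. Those 2 libraries had the lowest levels of the interferon list, as mean log2 CPM: 3.88 and 3.98, against 4.44 to 4.46 in the other old controls and 4.86 to 5.25 in young ANKO fat. They also had the lowest summed level of 24 T and NK cell markers, 60.2 and 83.1 CPM, against 512 to 719 CPM in the other old controls and 494 to 589 CPM in young ANKO fat. Without them the median of the interferon list was 0.57.

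The interferon-stimulated response element core (GAAA, any 2 bases, then GAAA, on both strands) stood in the 250 bases before the start of 4 of the 5 called genes, and in 12 of the 20 listed genes with a RefSeq promoter. It stood before 3.39% of all such tested genes. The window of Ifit2 did not hold these letters. The 4 windows are printed because the called genes share this motif. Each line gives the last 200 bases before the RefSeq start, from GRCm38.p6 chr19:34640689-34640888 (Ifit1), chr19:34583329-34583528 (Ifit3), chr19:34607757-34607956 (Ifit3b), all on the plus strand, and chr12:26456453-26456652 (Rsad2, minus strand), with matches on either strand in capitals.
Ifit1: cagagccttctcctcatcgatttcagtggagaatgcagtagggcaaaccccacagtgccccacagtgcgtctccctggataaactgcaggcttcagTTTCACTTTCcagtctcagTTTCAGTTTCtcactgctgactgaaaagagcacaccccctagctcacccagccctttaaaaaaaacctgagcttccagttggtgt
Ifit3: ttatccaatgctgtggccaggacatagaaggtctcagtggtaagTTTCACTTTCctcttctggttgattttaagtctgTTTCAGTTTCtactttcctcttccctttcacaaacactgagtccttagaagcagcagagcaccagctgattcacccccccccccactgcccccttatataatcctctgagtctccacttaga
Ifit3b: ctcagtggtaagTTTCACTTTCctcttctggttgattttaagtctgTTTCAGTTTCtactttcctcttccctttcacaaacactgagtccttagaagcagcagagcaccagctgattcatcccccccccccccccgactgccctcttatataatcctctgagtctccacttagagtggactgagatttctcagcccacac
Rsad2: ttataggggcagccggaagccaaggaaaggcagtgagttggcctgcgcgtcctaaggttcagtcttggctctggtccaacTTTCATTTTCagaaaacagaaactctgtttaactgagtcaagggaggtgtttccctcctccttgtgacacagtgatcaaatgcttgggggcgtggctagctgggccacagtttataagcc
Ifit1 held a pair of matches that began 104 and 85 bases before the start. In Ifit3 they began 156 and 122 bases before it and in Ifit3b 188 and 154, while Rsad2 held 1 match, at 120 bases.

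Of 20 clock genes, all measured, 4 were higher in young ANKO than in old control fat and 2 lower, with a median log2 fold change of 0.34. In the circadian clock Arntl and Npas2 or Clock drive the Per, Cry and Nr1d genes and Dbp, whose products feed back on them, so that the arms peak at opposite times of day. None was called between young ANKO and young control. Between old and young controls 6 were called, 2 higher and 4 lower in the old (0.42% and 0.0707% of all genes were). The labels give no hour of tissue collection.

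Per2 (chromosome 1, 91415982 to 91459324), a repressor in the loop, read 79.0, 84.6 and 50.2 CPM in young ANKO and 21.3, 27.2, 27.1, 22.3 and 27.5 CPM in old control fat. Young controls had 48.2, 67.6 and 58.5 CPM. Dbp, an output transcription factor, read 79.9, 88.3 and 72.2 CPM in young ANKO and 27.8, 23.2, 22.9, 19.1 and 25.6 CPM in old control fat. Young controls had 75.8, 76.2 and 118 CPM. For both, the young ANKO libraries overlapped young controls and lay above all old controls. The log2 fold change against old controls was 1.51 ± 0.17 for Per2 (adjusted p = 7.81e-04) and 1.76 ± 0.24 for Dbp (adjusted p = 0.0024). Against young controls it was 0.29 ± 0.20 (adjusted p = 0.93) for Per2 and -0.17 ± 0.27 (adjusted p = 1.0) for Dbp. Exons of Dbp overlap those of Sphk2, so its count is uncertain.

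Nr1d2, a nuclear receptor that represses Arntl, had 107, 107 and 84.1 CPM in young ANKO and 51.1 to 72.6 CPM in old control fat (0.77 ± 0.12, adjusted p = 0.0064). Ciart, another repressor, had 6.03, 8.39 and 7.60 CPM against 2.82 to 3.83 CPM (1.18 ± 0.25, adjusted p = 0.028). On the activating arm Arntl had 14.3, 16.7 and 14.1 CPM against 31.3, 26.9, 36.2, 23.1 and 34.2 CPM in old controls (-1.01 ± 0.18, adjusted p = 0.011). Its partner Npas2 had 4.09, 5.04 and 4.62 CPM against 11.0 to 20.9 CPM (-1.72 ± 0.37, adjusted p = 0.035). None of these 4 genes overlapped between the groups. Per1, Per3, Cry1, Cry2, Nr1d1 and Clock were not called, and Per1 and Per3 lay higher in young ANKO fat without overlap. Of the 6 calls, those of Per2 and Dbp held in every alternative. Npas2, Arntl and Ciart lost theirs without any 1 young ANKO library, and Nr1d2 without young ANKO 2. Leaving out old control 2 also ended the calls of Ciart and Npas2, as did old control 4 for Ciart and old control 5 for Npas2. Adjusted p reached 0.18 for Ciart and 0.158 for Npas2 over all alternatives. The list kept 2 calls without young ANKO 2. It had 3 without young ANKO 1 and 3 without young ANKO 3.

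The E-box CACGTG, which these activators bind, was searched after the clock genes had been seen to differ, together with the D-box TTANGTAA and the ROR element core TAGGTCA, all on both strands. The last 2 stood before 0 of the 5 called clock genes with a RefSeq promoter, and before 1.8% and 2.02% of tested genes. The E-box stood in the 250 bases before 1 of the 5, Ciart, and before 8.94% of tested genes. The 200 bases before Ciart (chr3:95882229-95882428, minus strand) held 3 copies, shown in capitals, which began 116, 58 and 44 bases before the start.
Ciart: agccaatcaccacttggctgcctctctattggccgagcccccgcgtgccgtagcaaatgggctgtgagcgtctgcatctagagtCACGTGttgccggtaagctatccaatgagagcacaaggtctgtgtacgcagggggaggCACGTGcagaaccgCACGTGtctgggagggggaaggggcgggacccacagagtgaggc

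Of 25 adipocyte markers, all measured, 2 were lower in young ANKO than in old control fat and none higher (median log2 fold change -0.60). In all, 22 of the 25 had a log2 fold change below 0 and 3 above 0, against 11550 and 9656 of the 21206 genes tested. Rbp4, the retinol carrier secreted by fat and liver, had 14.8, 17.9 and 29.4 CPM in young ANKO fat, 119, 133, 68.5, 86.0 and 188 CPM in old controls and 107, 88.6 and 188 CPM in young controls. Retn, which encodes resistin, had 80.9, 121 and 91.0 CPM in young ANKO fat, 450, 338, 244, 316 and 528 CPM in old controls and 478, 396 and 530 CPM in young controls. In both genes the 3 knockouts lay below every control, and old and young controls overlapped. The log2 fold change against old controls was -2.52 ± 0.37 for Rbp4 (adjusted p = 0.0039) and -1.94 ± 0.33 for Retn (adjusted p = 0.0097).

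The defining markers of the cell type, Adipoq and Plin1, overlapped between the groups and were not called by edgeR. DESeq2 called both lower (adjusted p = 0.0272 and 0.0427). Adipoq, which encodes adiponectin, had 264, 410 and 383 CPM in young ANKO fat and 735, 1066, 406, 460 and 1473 CPM in old controls (-1.23 ± 0.39, adjusted p = 0.142). Plin1, which coats the lipid droplet, had 354, 543 and 445 CPM against 540 to 1479 CPM (-1.02 ± 0.33, adjusted p = 0.158). Old controls 3 and 4 lay near the knockouts in both. The summed level of the 25 markers ran from 12180 to 16930 CPM in young ANKO, from 14590 to 42040 CPM in old control and from 27570 to 41220 CPM in young control fat, with none of the defining markers at 0. The part of these levels in the differences of single adipocyte genes was not tested. Lep, which encodes leptin, had 45.1, 85.0 and 99.2 CPM in young ANKO fat and 82.2 to 1820 CPM in old controls (adjusted p = 0.088). Without young ANKO 1 or 3 the call of Retn was lost, without young ANKO 2 that of Rbp4, and the list then had 1 call each time. With old control 3 left out it had 3, and with old control 4 left out 4. Without old controls 2 and 5 the list's median was -0.02, with 2 members lower and 1 higher.

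A receptor for a metabolite and one for a hormone, Hcar1 and Ghr, were also lower. Hcar1, the lactate receptor that restrains lipolysis, had 11.2, 11.1 and 12.8 CPM in young ANKO fat and 52.2, 72.1, 24.3, 33.0 and 82.5 CPM in old controls (-2.18 ± 0.39, adjusted p = 0.014). It was the 1 called gene of 20 listed for lipolysis, whose median was -0.41. Ghr, the growth hormone receptor, had 169, 191 and 199 CPM against 344 to 1078 CPM (-1.72 ± 0.34, adjusted p = 0.024). It was the 1 called gene of 22 listed for insulin and IGF signalling, where 6 genes did not overlap and were lower (5.5% of all genes did so). Irs2, an adaptor of the insulin receptor, had 74.5, 81.9 and 62.4 CPM against 103 to 148 CPM and missed the threshold (-0.74 ± 0.17, adjusted p = 0.052). The calls of Hcar1 and Ghr were lost without any 1 young ANKO library, with adjusted p up to 0.103 for Hcar1 and 0.129 for Ghr over all alternatives. Both lay below young controls too, which had 58.3 to 126 CPM of Hcar1 and 461 to 567 CPM of Ghr.

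Of 18 genes of thermogenic fat, all measured, 4 were higher in young ANKO than in old control fat and none lower, though the median log2 fold change was -0.10. Against young controls 1 of the 18 was higher and none lower, with a median of 0.51. In old over young controls none was called, and the median was 0.30. DESeq2 called 5 higher and 1 lower in young ANKO than in old control fat. Against old controls the list was split, with 8 members above 0 and 10 below, down to -3.46. The members named here are all among the 8. Acot11, a thioesterase of acyl-CoA, had 24.8, 49.1 and 29.4 CPM in young ANKO fat and 7.03, 5.64, 8.90, 8.51 and 4.79 CPM in old controls. Young controls had 6.55, 6.05 and 7.59 CPM, within the range of the old. The difference from old controls was 2.30 ± 0.22 (log2, adjusted p = 1.39e-04) and its call held under every alternative. Exons of Acot11 overlap those of Fam151a.

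Kcnk3, a potassium channel of brown adipocytes, had 114, 217 and 143 CPM against 18.8 to 44.7 CPM in old controls (2.12 ± 0.32, adjusted p = 0.0049). Elovl3, which elongates fatty acids in brown fat, had 4.91, 9.42 and 2.79 CPM against 0 to 0.772 CPM (4.02 ± 0.76, adjusted p = 0.017). The fourth was Fgf21, given above. Cidea, a lipid droplet protein, had 23.6, 35.5 and 24.5 CPM against 0.957 to 10.6 CPM and was not called (2.51 ± 0.65, adjusted p = 0.072). It was called with DESeq2, with limma voom, without old control 2 and without old controls 2 and 5, and its adjusted p ran from 0.0045 to 0.276 over all alternatives. Ucp1, the uncoupling protein that defines the type, had 2.67, 8.03 and 5.19 CPM against 0 to 0.257 CPM in 4 old controls and 5.23 CPM in old control 2 (adjusted p = 0.54). Young ANKO 2 was the highest library for each of these genes. Without it 1 call of the list was left, and without old controls 2 and 5 there were 5 and the median was 0.84.

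Of 27 genes that make fatty acids and triglyceride, all measured, 2 were higher and 1 lower. A log2 fold change above 0 was seen for 22 of the 27, against 9656 of all 21206 genes. The median was 0.86, against 0.22 in young ANKO over young control and -0.62 in old over young control. Slc25a1, the carrier that exports citrate from mitochondria for lipid synthesis, had 799, 1616 and 971 CPM in young ANKO fat. Old controls had 462, 261, 107, 349 and 114 CPM and young controls 628, 320 and 651 CPM (2.13 ± 0.42 against old controls, adjusted p = 0.024). Pgd, of the pentose phosphate pathway, had 359, 754 and 472 CPM against 158 to 313 CPM in old controls (1.03 ± 0.24, adjusted p = 0.045). Fads1, a desaturase, went the other way with 69.6, 86.0 and 73.8 CPM against 108 to 148 CPM (-0.75 ± 0.15, adjusted p = 0.026). Without young ANKO 2 or without young ANKO 3 no gene of the list was called.

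Of 37 listed nuclear-encoded subunits of the respiratory chain none was called, with a median log2 fold change of 0.12. For 34 the 95% interval lay within 1 on the log2 scale either way (55.6% of all genes had one). The median was 0.26 with 1 subunit called higher without old control 2, 0.49 with 3 called higher without old controls 2 and 5, and -0.02 without old control 3. Ndufs1, of complex I, had 84.0, 102 and 87.3 CPM in young ANKO fat against 65.3 to 106 CPM in old controls, and Sdha, of complex II, 297, 382 and 305 CPM against 206 to 404 CPM. Both were chosen as well-known subunits after their values were seen. None of the 13 mitochondrially encoded messages was called either, though all 13 had a log2 fold change above 0 (0.11 to 0.96, median 0.52). Without overlap, 3 lay higher in young ANKO fat (3.74% of all genes did so). DESeq2 called 2 of the 13. The median was 0.32 without young ANKO 2 and 0.38 without old control 3, the old control with the lowest level of these messages. One of the 3 without overlap, mt-Nd1, had 3698, 5321 and 4067 CPM against 2477 to 3658 CPM (0.56 ± 0.20, adjusted p = 0.212).

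**Figure D4:**
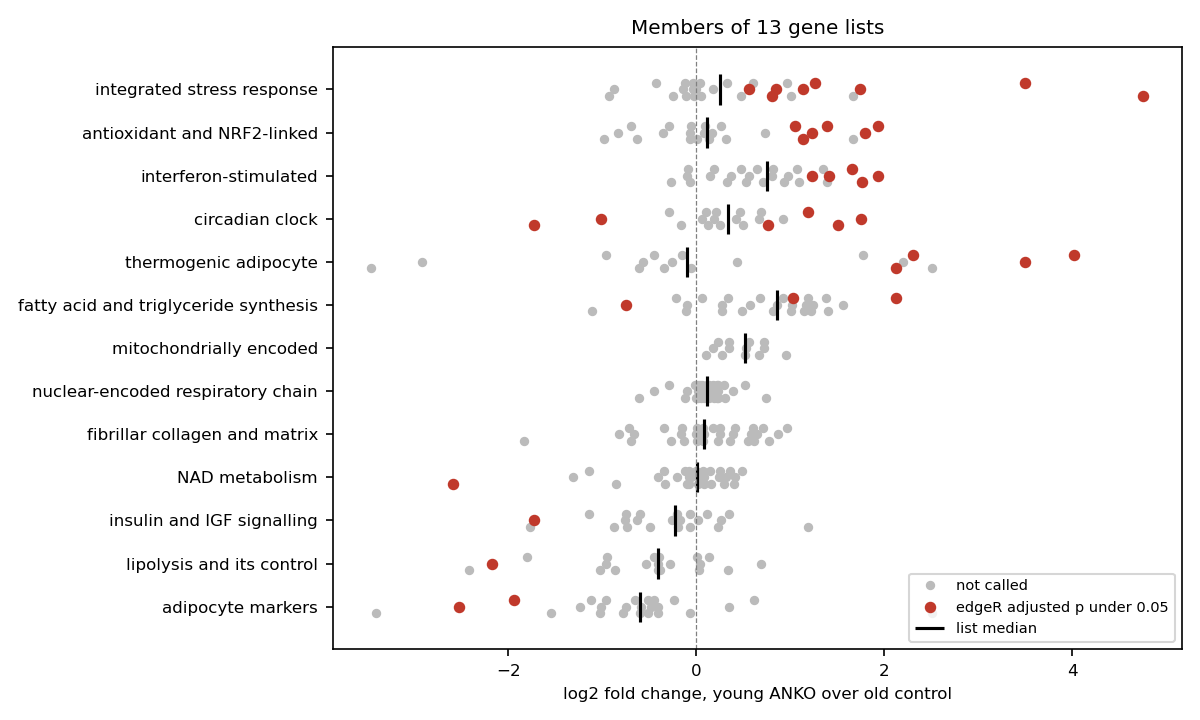
Log2 fold change of young ANKO over old control (x axis) for each measured member of 13 gene lists (y axis), with called genes in red and list medians as black bars. The interferon and the fatty acid synthesis lists had medians of 0.76 and 0.86, and the adipocyte list -0.60.

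Among the genes with the largest differences were, on the higher side, Gdf15, Clca1, Elovl3, Nrxn3, Aspg, Phospho1, Mfsd2a, Ppp1r3b and Ccdc92, with log2 fold changes from 4.76 down to 2.91. For some the young controls were as high as the knockouts. Clca1, a secreted regulator of chloride currents, had 20.3, 15.5 and 6.97 CPM in young ANKO fat, 0.0957 to 1.19 CPM in old controls and 8.05, 21.9 and 8.38 CPM in young controls. Mfsd2a, a lysophospholipid transporter, had 108, 90.9 and 24.9 CPM in young ANKO fat, 1.97 to 21.1 CPM in old controls and, in young controls, 13.0 to 115 CPM.

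For others the knockouts stood alone. Phospho1, a phosphatase of phosphocholine, had 12.4, 23.2 and 15.4 CPM in young ANKO fat, 0.256 to 4.91 CPM in old controls, and in young controls 1.58 to 1.65 CPM. Ppp1r3b, which targets a phosphatase to glycogen, had 64.1, 123 and 58.7 CPM against 19.6, 9.17, 5.41, 11.6 and 7.61 CPM in old controls (2.94 ± 0.41, adjusted p = 0.0032). In both genes every young ANKO library lay above all controls of both ages. Of the genes named on the higher side, Gdf15, Ppp1r3b and Ccdc92 were called under every alternative. The call of Mfsd2a was lost without old control 2, 3, 4 or 5 or any young ANKO library, that of Nrxn3 without old control 2, 3, 4 or 5 or young ANKO 1 or 2, that of Clca1 without young ANKO 1 or 2 and that of Phospho1 without any young ANKO library. Adjusted p reached 0.192, 0.146, 0.0754 and 0.134, in the order Mfsd2a, Nrxn3, Clca1 and Phospho1. Elovl3 lost its call without young ANKO 2, and over all alternatives its adjusted p reached 0.133.

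On the lower side the largest were Akr1cl, Muc4, Sox14, Alox12e, Kcnd2, Stk32a, Olfm4, Tmprss6, Brinp3 and Pramef12, from -4.89 to -3.55. Young controls had these genes low as well. Brinp3 (chromosome 1, 146494760 to 146902472), a gene best known from neurons, had 0.603, 0.714 and 0.721 CPM in young ANKO fat, 3.22, 9.24, 9.48, 7.79 and 11.2 CPM in old controls and 1.22, 0.775 and 0.263 CPM in young controls. Its log2 fold change was -3.58 ± 0.47 (adjusted p = 0.0019), with a call under every alternative, and old over young control gave 3.42 ± 0.47 (adjusted p = 0.0069). Muc4, a membrane mucin of epithelia, had 2.50, 2.41 and 0.914 CPM in young ANKO fat, 8.45, 98.8, 65.3, 68.0 and 35.7 CPM in old controls and, in young controls, 0.158 to 2.26 CPM. Alox12e, an epidermal lipoxygenase, had 0.517, 2.59 and 0.0962 CPM against 9.52 to 43.0 CPM in old controls. The young groups overlapped in all 3 genes. Calls were lost without young ANKO 1 for Sox14, without young ANKO 1 or 3 for Alox12e, without young ANKO 2 or 3 for Kcnd2, and without any 1 young ANKO library for Akr1cl, Muc4, Stk32a, Olfm4, Tmprss6 and Pramef12. Leaving out old control 2 or 4 also ended those of Muc4, Tmprss6 and Pramef12, as did old control 3 for Muc4 and old control 5 for Tmprss6 and Pramef12. The adjusted p of those genes ranged up to 0.305 over all alternatives.

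A pair of genes was called against young controls both in young ANKO and in old control fat, in the same direction. Sfxn1, a mitochondrial serine carrier, had 61.2, 79.5 and 61.8 CPM in young ANKO fat, 87.8, 66.4, 46.5, 77.3 and 68.0 CPM in old controls and 105, 143 and 172 CPM in young controls. The young ANKO and old control libraries overlapped fully, with a log2 fold change of -0.04 ± 0.18 between them (95% interval -0.42 to 0.35). Against young controls it was -1.05 ± 0.20 (adjusted p = 0.043) in young ANKO and -1.02 ± 0.18 (adjusted p = 0.028) in old control fat. Tpsb2, a mast cell tryptase with a close paralog that makes its count uncertain, had 21.8, 22.8 and 17.2 CPM in young ANKO fat, 17.0, 16.5, 15.2, 11.7 and 17.6 CPM in old controls and 9.76, 8.06 and 6.74 CPM in young controls. It differed from young controls by 1.33 ± 0.21 (adjusted p = 0.012) in young ANKO and by 0.93 ± 0.19 (adjusted p = 0.045) in old control fat. Both comparisons share the young controls. They called 0.316% (young ANKO) and 0.49% (old control) of all genes. Without 1 young control, their calls fell from 67 to between 10 and 33 and from 104 to between 6 and 25. Whether Sfxn1 and Tpsb2 kept these calls in such fits is not reported here.

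Markers of other cells showed how far the tissue itself varied. The mast cell list (14 genes, all measured) had a mean log2 CPM of 2.13, 2.06 and 2.18 in young ANKO, 1.57 to 1.92 in old control and 0.90 to 1.47 in young control fat. Its called member was Hpgds, a prostaglandin D synthase, with 9.73, 10.9 and 15.0 CPM against 5.66 to 7.70 CPM (0.84 ± 0.16, adjusted p = 0.022), a call lost without young ANKO 2 or 3. Cpa3, the defining marker, had 11.0, 13.0 and 12.7 CPM against 4.98 to 10.2 CPM and was not called (0.63 ± 0.21, adjusted p = 0.175). Among 18 genes of lipid-associated macrophages, which clear lipid in stressed fat, Lgals3 was called: 111, 204 and 197 CPM against 37.7 to 101 CPM (1.44 ± 0.24, adjusted p = 0.010). The list's median log2 fold change was 0.55. Without young ANKO 2 or 3 that call was lost too, whereas 8 of the 18 genes were called higher without old control 2 (median 0.77) and 9 without old controls 2 and 5 (median 0.92). No gene of the 22-gene macrophage list was called, and its defining marker Adgre1 overlapped, with 37.8 to 50.4 CPM in young ANKO and 22.1 to 52.2 CPM in old control fat. Without old control 2, 1 gene of that list was called higher, and without old controls 2 and 5 there were 3, Adgre1 among them (adjusted p = 0.0092).

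Of the 22 genes of the B and plasma cell list none was called by edgeR. A log2 fold change above 0 was seen for 14 of them (median 0.20) and for 9656 of all 21206 genes. Without overlap, 4 lay lower in young ANKO fat (5.5% of all genes did so). The median was -0.26 without old controls 2 and 5, and DESeq2 called 4 of the genes lower. Among the 4 without overlap were Igkc and Jchain, which are described because their values stood apart. Igkc, the kappa light chain, had 83.0, 91.6 and 121 CPM in young ANKO fat, 248, 444, 446, 397 and 429 CPM in old controls and 114, 88.1 and 104 CPM in young controls (-2.00 ± 0.47, adjusted p = 0.051). It was called with the filter of 1 CPM in 3 libraries, with DESeq2, with limma voom, with only the 8 libraries compared and without old control 1, and its adjusted p ran from 3.64e-04 to 0.245. Jchain, which joins secreted antibodies, had 6.50, 13.9 and 7.74 CPM against 22.5 to 61.7 CPM (-2.12 ± 0.52, adjusted p = 0.065), and was called with DESeq2. The B cell marker Ms4a1 overlapped between the groups: it had 43.4 to 71.2 CPM in young ANKO fat and 1.73, 7.45, 43.7, 49.0 and 99.6 CPM in old controls 2, 5, 4, 1 and 3. The summed level of the list was 1350 to 1864 CPM in young ANKO and 1925 to 3314 CPM in old control fat. The part of B and plasma cell number in the values of Igkc and Jchain was not tested.

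Skin, mammary and muscle markers were present in varying amounts. Trp63, a basal epithelial factor, had 12.7, 15.0 and 10.1 CPM in young ANKO and 29.7 to 100 CPM in old control fat (-1.93 ± 0.44, adjusted p = 0.048). Leaving out old control 2 or 3 or any young ANKO library ended its call. Krt1, of the upper epidermis, was called higher (adjusted p = 0.048) on the strength of young ANKO 2 with 9.33 CPM, beside 0.474 and 0.0962 CPM in young ANKO 1 and 3 and 0 to 0.359 CPM in old controls. Its adjusted p reached 0.678 over the alternatives, and leaving out young ANKO 1 or 2 or old control 1, 2, 3 or 5 ended the call. The summed level of the 18 measured keratinocyte and skin genes was 307 to 447 CPM in young ANKO and 431 to 939 CPM in old control fat, with the defining markers Krt5 and Krt14 above 0 in every library. The milk protein gene Csn2 had 5882 CPM in old control 2 and 0.171 to 35.3 CPM in the others, against 0.0861 to 0.357 CPM in young ANKO fat. The 17 skeletal muscle genes summed to between 280 and 35460 CPM in young ANKO and 272 and 83640 CPM in old control fat, and none was called. The part of these tissues in the genes above, the epithelial genes Muc4 and Alox12e included, was not tested.

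**Figure D5:**
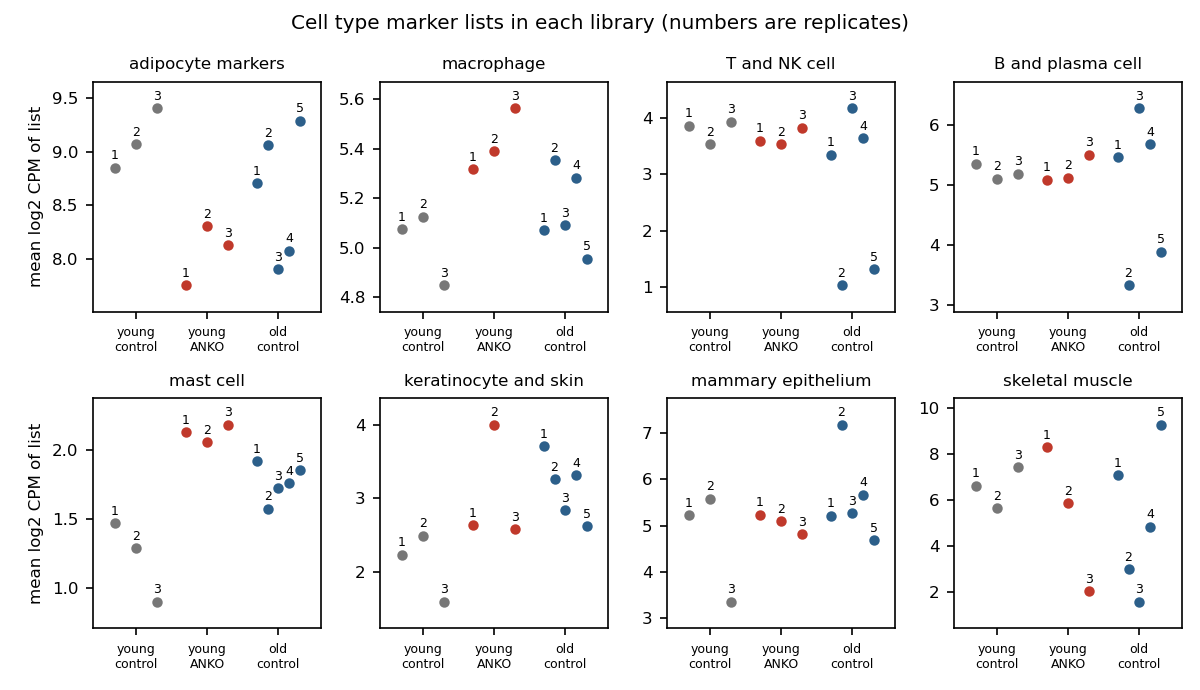
Mean log2 CPM of 8 cell type marker lists (y axes, with a range of their own in each panel) in every library of young control, young ANKO and old control fat, labelled by replicate number. Old controls 2 and 5 were low in T and NK cell markers (1.04 and 1.33, against 3.35 to 4.17 in the other old controls). Young ANKO 2 had the highest mean log2 CPM of skin genes (4.01) but not their highest sum (447 CPM, against 939 CPM in old control 1).

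Of all genes tested 1.33% were called, and no list was tested against that share. Across the 35 gene lists, 16 held a called gene and 19 none. Those not yet described were Cyp51, of cholesterol synthesis (35.4, 54.4 and 32.1 CPM in young ANKO and 21.4 to 27.9 CPM in old control fat, adjusted p = 0.038), and Mcam, of vessel walls (60.0, 84.3 and 68.2 CPM against 111 to 348 CPM, adjusted p = 0.045). Leaving out old control 1 or young ANKO 1 or 2 ended both calls, as did old control 3 or 5 for Cyp51 and old control 2 or young ANKO 3 for Mcam, with adjusted p up to 0.263 and 0.183.

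A growth arrest gene and a zinc finger gene completed the named set. Cdkn2c, a cell cycle inhibitor that also marks maturing adipocytes, had 26.1, 29.3 and 35.1 CPM in young ANKO fat, 58.7 to 137 CPM in old controls and, in young controls, 62.7 to 87.9 CPM (-1.69 ± 0.24, adjusted p = 0.0033). Cdkn2a, a marker of senescent cells, was near its detection limit with 0.268 to 1.25 CPM against 0.901 to 2.20 CPM (adjusted p = 0.28). The knockouts stood below every control for Cdkn2c and overlapped old controls for Cdkn2a. Zfp949 (chromosome 9, 88548020 to 88571061) had 42.3, 37.0 and 36.8 CPM in young ANKO fat, 16.3, 18.2, 20.0, 20.6 and 20.8 CPM in old controls and, in young controls, 12.9 to 15.2 CPM. Its difference from old controls was 1.01 ± 0.11 (log2, adjusted p = 5.08e-04), and the call held under every alternative.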

How the data were processed

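Total RNA of subcutaneous white fat was sequenced in 16 samples. The deposited table holds raw read counts per gene symbol, as the authors made them without normalization. STAR (2.0.4b), Subread, featureCounts (1.45) and the build GRCm38 appear in the submitters' processing notes. For annotation, strand setting and reads with several matches nothing was found in the labels or headers, and overlapping genes and near-identical paralogs are therefore uncertain. Of 40757 lines, 322 exact repeats and 113 lines of a repeated symbol were dropped, which left 40322 symbols. Totals were 19277403 to 30779298 reads per library.

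CPM were computed with TMM factors in edgeR 4.0.16 (R 4.3.3). The filter filterByExpr kept 21206 genes. Robust quasi-likelihood F-tests came from 1 model of the 4 groups, with Benjamini-Hochberg adjustment over all genes tested and a threshold of 0.05. Standard errors are the log2 fold change over the square root of F. Positions come from GENCODE M21 and promoter sequence from RefSeq (GRCm38.p6). The pipeline was tested on simulated counts. Same-numbered young ANKO and old control libraries correlated at 0.156, 0.087 and 0.297 in their deviations from group means, and the number was not taken as a pairing.

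The samples compared, the 35 gene lists and the alternatives were chosen with earlier results of these data known. Named genes were Nampt, NAD genes, Zfp949, the 10 highest and 10 lowest log2 fold changes among called, non-overlapping genes with a mean of at least 1 CPM (predicted models and antigen receptor segments left out), the 5 smallest p per list, genes called in both reference comparisons, and defining markers. Some items that this rule chose are not reported here. Ddit3, Atf5, Hmox1, Ndufs1, Sdha, Ucp1 and the genes under other observations were added after their values were seen. Alternatives were RLE factors, library totals, 2 other filters, DESeq2 (1.42.0), limma voom (3.58.1), a replicate block, the 8 libraries alone, and libraries left out.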

Additional observations from a re-analysis of the deposited data

Results flagged for a closer look

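Among 88 genes and 35 lists, 10 genes and 2 lists had 1 old control far from the other 4. The measure was the gap of the most distant library to its neighbour, divided by the range of the 5, with a limit of 0.71 that chance passes in about 5% of groups. Old control 2 stood high for Hmox1 (ratio 0.855, 55.7 CPM), Cbr3 (0.804, 7.88 CPM), Ucp1 (0.951, 5.23 CPM) and Csn2 (0.994, 5882 CPM). Hmox1 thereby overlapped young ANKO fat and Cbr3 did not. Old control 4 stood high for Sox14 (0.766, 10.5 CPM) and Krt1 (0.811, 0.359 CPM), and old control 1 for Nrxn3 (0.719, 29.0 CPM) and Trp63 (0.785, 100 CPM). Old control 3 stood low for Kcnk3 (0.726, 18.8 CPM) and old control 1 for Igkc (0.752, 248 CPM). Of the lists, the mitochondrially encoded genes had a mean log2 CPM of 7.81 in old control 3 and 8.79 to 9.14 in the others (ratio 0.736). Endothelial genes had 6.23 in old control 5 and 5.85 to 5.95 in the others (ratio 0.732).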

How the results depend on the processing

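Of 1492 pairs of a named gene and an alternative for young ANKO against old control, 1216 kept the direction and the side of the threshold, 249 lost a call, 19 gained one and 8 changed sign. The sign changes were in genes that no fit called: Sfxn1 (0.063, 0.006, 0.031 and 0.023 without old control 1, old control 4, young ANKO 1 and young ANKO 3, in a range from -0.165), Sdha (-0.055, -0.007 and -0.055 without old control 3, old control 4 and young ANKO 2, in a range up to 0.168 without 1 library, and 0.346 without old controls 2 and 5) and Ms4a1 (-0.237, from 0.439, without old controls 2 and 5). The 283 calls of young ANKO against old control became 1054 with DESeq2, 42 with only the 8 libraries compared and 524 without old controls 2 and 5, and ranged from 44 to 309 without 1 library. Young ANKO against young control (67) gave 138 with library totals, 334 with DESeq2, 319 without old controls 2 and 5 and 10 to 48 without 1 library. Old against young control (104) gave 60 with no filter, 816 with DESeq2, 18 with limma voom, 192 without old controls 2 and 5 and 6 to 212 without 1 library. With the replicate number as a block these 3 counts were 119, 38 and 4. The block left 5 integrated stress genes, 3 clock, 2 thermogenic and 1 adipocyte gene called. With only the 8 libraries compared, 2 integrated stress, 2 antioxidant, 3 clock, 2 thermogenic and 1 adipocyte gene were called. DESeq2 called 10 interferon and 8 adipocyte genes. Without 1 library the calls ranged from 1 to 8 (integrated stress), 4 to 6 (antioxidant), 5 to 7 (interferon), 2 to 7 (clock), 1 to 4 (thermogenic) and 1 to 4 (adipocyte). For distances between libraries, the gap between those to old and to young controls (0.212) was 1.139 over the 500 most variable genes, 0.111 without old controls 2 and 5 and 0.213 without young ANKO 2. RLE factors and the stricter filter kept every count given here within 1.5 times. The cause of these shifts was not tested. Fits with fewer libraries have fewer degrees of freedom, and 3 young ANKO libraries limit what any of them can call.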

Other observations

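Several genes outside the lists were called without each of the 8 libraries in turn, and the following were chosen after their values were seen. Tsku, a secreted leucine-rich proteoglycan, had 55.0, 107 and 68.5 CPM in young ANKO fat, 8.15 to 12.9 CPM in old and 8.53 to 13.4 CPM in young controls (2.83 ± 0.22 against old controls, adjusted p = 3.43e-05, edgeR). Maoa, which oxidises monoamines, had 58.0, 118 and 120 CPM in young ANKO fat, 14.6 to 29.5 CPM in old and 14.2 to 15.4 CPM in young controls (2.23 ± 0.28, adjusted p = 0.0016). Spon1, a matrix protein, was lower, with 60.4, 34.3 and 44.3 CPM against 133 to 294 CPM in old and 160 to 301 CPM in young controls (-2.18 ± 0.29, adjusted p = 0.0019). Impdh1, of guanine nucleotide synthesis, had 83.3, 117 and 92.9 CPM against 44.6 to 56.0 CPM in old controls (0.97 ± 0.12, adjusted p = 0.0016). In these 4 genes every young ANKO library lay outside the range of all controls.

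Windows of 1 Mb that held at least 4 called genes merged into 5 regions, counted without a test. On chromosome 1 (84963669 to 85550577, GRCm38) 8 of 19 tested genes were lower in young ANKO than in old control fat, among them C130026I21Rik and Gm7609. Their summed level was 4.74, 4.69 and 5.24 CPM in young ANKO, 20.8 to 65.3 CPM in old control, 3.32 to 5.56 CPM in young control and 42.0 to 64.0 CPM in old ANKO fat. The old libraries of both genotypes lay above the young ones. These are predicted or little studied genes of a family with near-identical copies, so single counts are uncertain. On chromosome 6 (112563642 to 113335068) 4 of 17 tested genes were lower: Gm15519, Gm5578, Rad18 and Ogg1. They summed to 27.0, 28.6 and 28.9 CPM in young ANKO fat, 57.0 to 114 CPM in old control, 45.7 to 57.0 CPM in young control and 23.3 to 28.1 CPM in old ANKO fat. Here the libraries of both ANKO groups lay below all controls. On chromosome 7 (96171246 to 96911093) 4 of 8 tested genes were lower: Tenm4 and the predicted models Gm15414, Gm15413 and Gm15416. They summed to 155, 202 and 187 CPM in young ANKO, 357 to 1268 CPM in old control, 495 to 545 CPM in young control and 65.4 to 145 CPM in old ANKO fat. Whether the models lie within Tenm4 and share its reads was not tested, so the 4 may not be separate observations. The other 2 regions held the Ifit genes on chromosome 19 (4 of 6 tested genes called) and Atf5, Ftl1, Ppp1r15a, Fgf21 and Dbp on chromosome 7 (5 of 65).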
